A study of Mus musculus with 22 samples.

Results

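The genes described here are cyclins, cyclin-dependent kinases, replication factors and mitosis genes of mouse fibroblasts. A list of 50 symbols was matched to the gene identifiers of the files, and 48 of them were found among the 10516 genes measured. The other 2, Cdkn1c and Cdt1, were not analysed here. The list was drawn up by gene function, with earlier results of these data known. NIH3T3 cells, a line of fibroblasts derived from mouse embryos, had been transduced with lentiviral shRNAs and selected with puromycin, so that each lysate came from a population of transduced cells and not from a clone. Denr was knocked down with Denr shRNA1 or with Denr shRNA2 (3 lysates each), and the controls carried a scramble shRNA (3 lysates) or an shRNA against Gfp (2 lysates), the green fluorescent protein of jellyfish. All cultures were treated with cycloheximide for 2 min at 100 µg/ml before lysis, and each lysate gave 1 RPF-seq library, which reads out the stretches of mRNA covered by ribosomes (footprints), and 1 RNA-seq library. One dish was used per replicate, and the cells are called subconfluent in the deposited design but confluent in the study's methods, a state that bears on how many cells divide.

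The cell cycle is driven by kinases that are active only when bound to a cyclin. D-type cyclins with Cdk4 or Cdk6 act in G1, cyclin E with Cdk2 at the entry into S phase, cyclin A in S phase and G2, and cyclin B with Cdk1 in mitosis. E2f factors, held back by Rb1, switch on replication genes, whereas B-Myb (Mybl2) and Foxm1, recruited through the MuvB complex, switch on mitotic genes. Most of these mRNAs rise and fall with the phase of the cell, and in a lysate of cells in all phases a smaller share of cells in a phase cannot be told apart from less RNA per cell. DENR, the protein made from Denr, helps ribosomes that have translated a short upstream open reading frame (uORF) in the 5′ UTR to resume scanning and initiate again at the coding sequence (CDS).

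Promoter sequences are shown first, since many of these genes are switched on through shared short elements. In the RefSeq promoter table (GRCm38.p6, 250 bases before to 50 after each start site), 38 of the 48 genes had an entry, with 41 promoters between them. The cell cycle homology region (CHR), at which MuvB binds mitotic promoters, was searched as TTTGAA on both strands. It was found in 14 of the 38 genes (36.8%), against 17.9% of all 32851 promoters of the same length. Here and for the motifs below, the first share counts genes with a match in any of their promoters, and the second counts single promoters. Among 17 of the genes that act in S phase, G2 or mitosis (cyclins A and B with Cdk1, mitotic kinases and the spindle checkpoint, motors and chromosome proteins), 12 held it, and among 10 genes of replication and nucleotide synthesis 1 held it. Of the genes with a CHR whose footprints are followed below, 4 are shown, with 1 window each. Others, such as Aurka and Plk1, are not shown. Top2a, Mki67 and Cdk1 each hold a further CHR, 23, 98 and 15 bases before the start site. The windows read from 5′ to 3′ on the strand of the gene, with the CHR in capitals.
Top2a (chr11:99024352-99024379, minus strand, 179 bases before the start site): tattggtccatTTTGAAgattctcccgc
Mki67 (chr7:135716479-135716506, minus strand, 116 bases before the start site): tagcgccagaaTTTGAAccgccgttttg
Cdk1 (chr10:69352967-69352994, minus strand, 71 bases before the start site): tgattggctccTTTGAAcgtctacgtgc
Kif23 (chr9:61946781-61946808, minus strand, 2 bases after the start site): tgattggcctgTTTGAAatgcgccgggc
The windows of Top2a, Cdk1 and Kif23 also hold ATTGG, the reverse complement of the CCAAT box, before the CHR. CCAAT was present on 1 strand or the other in 29 of the 38 genes (76.3%), against 37.4% of all promoters. On both strands, the E2F sites TTTGGCGC and TTTCGCGC were each found in 4 of the 38 genes (10.5%), against 0.514% and 0.323% of all promoters. Of the 10 replication and nucleotide genes, 3 held the first, of which Mcm6 and Mcm5 are shown with the site in capitals.
Mcm6 (chr1:128359797-128359826, minus strand, 110 bases before the start site): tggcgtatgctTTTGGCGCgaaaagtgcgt
Mcm5 (chr8:75109349-75109378, plus strand, 149 bases before the start site, site on the other strand): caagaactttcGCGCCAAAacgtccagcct
In both promoters this match overlaps a TTTCGCGC match, so the 2 counts are not independent. Such a match describes letters in a window and shows no binding.

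Denr itself (ENSMUSG00000023106, chromosome 5, 123907175 to 123928835, GRCm38) gave RNA of 44.0, 43.2 and 34.4 RPKM with Denr shRNA1 and of 15.5, 20.8 and 17.4 RPKM with Denr shRNA2, against 165 and 174 RPKM with Gfp shRNA and 190, 185 and 189 RPKM with scramble shRNA. RPKM is the number of reads scaled to the length of the region and the size of the library. All 6 knockdown lysates lay below all 5 controls (exact two-sided permutation test over 462 splits, p = 0.00216, the smallest possible), with a log2 change of −2.75 (limma, standard error (SE) 0.25, adjusted p = 0.00035). All 10 fibroblast markers tested were present, and their summed RNA lay between 9062 and 11665 RPKM after knockdown and between 8652 and 11082 RPKM in controls. Of 10 markers of other cell types, only Cdh1 and Cdh5 had a row in the files, summing to between 3.84 and 4.83 RPKM in all libraries. Reads on CDS and 5′ UTR numbered from 10927303 to 21649878 per RPF-seq library and from 8514080 to 20109699 per RNA-seq library. The RNA-seq libraries of Denr shRNA1 replicate 1 and Gfp shRNA replicate 1 stood apart for genes with a long CDS, as described with the genes concerned.

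In the control lysates these genes were among the better expressed of the fibroblast. Their median RNA level was 89.2 RPKM, against 28.3 RPKM over all 10516 genes, and their median footprint level was 92.7 RPKM, against 23.1 RPKM. At the top stood 3 mRNAs. Survivin (Birc5), which guides Aurora B to centromeres, had 692 ± 56.2 RPKM of RNA (SD, n = 5), the G1 kinase Cdk4 had 692 ± 90.7 RPKM (SD, n = 5) and the mitotic kinase Cdk1 had 655 ± 47.2 RPKM (SD, n = 5). These 3 did not differ beyond their spread, while cyclin A (Ccna2), next in order, had 412 ± 31.9 RPKM (SD, n = 5). The lowest were the retinoblastoma gene Rb1 with 8.87 ± 1.35 RPKM (SD, n = 5) and cyclin B2 (Ccnb2) with 6.35 ± 0.882 RPKM (SD, n = 5). Ccnb2 rested on 61 to 157 RNA-seq reads and 82 to 250 RPF-seq reads per library.

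Translation efficiency (TE), the CDS footprints of a lysate divided by its CDS RNA, was summarised by role, with no test between roles. On the log2 scale, the 4 transcription factors had a median TE of −1.05, with E2f3 apart from the other 3 at 0.17, and the 3 genes of deoxynucleotide synthesis one of 0.56, against −0.08 for all genes. Cyclin D2 (Ccnd2) had the highest log2 TE of the 48 genes, 1.43 ± 0.0722 (SD, n = 5), above 97.4% of all genes. The ribonucleotide reductase subunit Rrm2, cyclin D1 (Ccnd1) and Polo-like kinase 1 (Plk1) followed with 1.10 ± 0.0633, 1.04 ± 0.0691 and 0.98 ± 0.0537 (SD, n = 5). Ccnd1 overlapped with both neighbours, while all 5 control values of Rrm2 lay above all 5 of Plk1. At the low end stood the proliferation antigen Mki67 with −1.48 ± 0.480, Mybl2 with −1.20 ± 0.140, E2f1 with −1.16 ± 0.210 and Foxm1 with −0.95 ± 0.124 (SD, n = 5). Those 4 values overlapped, and that of Mki67 includes 1 control library in which its RNA was low (Gfp shRNA replicate 1, described with the long genes). Of the genes with enough 5′ UTR reads, 4 had more footprints per base on the 5′ UTR than on the CDS, namely Foxm1, Mybl2, Mki67 and Cenpf with 327%, 214%, 129% and 121% of the CDS density as means of the 5 controls.

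The first comparison asked whether knockdown of Denr changed the abundance of these mRNAs. Each gene was tested with limma on log2 values, all 10516 genes were adjusted together by the Benjamini-Hochberg method, and a false discovery rate (FDR) of 0.1 was the threshold. The replicate number was not part of the fits, and the counts with it as a block are given at the end. Of the 48 genes, 0 passed, against 3.55% of all genes, and 6 had an unadjusted p below 0.05. Under voom on the recovered reads 0 passed as well. The estimates lay between −0.30 and 0.15 on the log2 scale, 35 of 48 were below 0, and their median was −0.09, against 0.03 for all genes. The lowest were Rrm2 at −0.30 (adjusted p = 0.16 from limma), the licensing factor Cdc6 at −0.29 (adjusted p = 0.327) and the centromere histone Cenpa at −0.28 (adjusted p = 0.208). The highest were Ccnd2 at 0.15 (adjusted p = 0.412), Cdk6 at 0.14 (adjusted p = 0.595) and the helicase subunit Mcm7 at 0.10 (adjusted p = 0.649). Leaving out Denr shRNA1 replicate 1 gave 2 genes past the threshold, Aurka and Rrm2, and leaving out Gfp shRNA replicate 1 gave 1, Top2a.

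CDS footprints, which count ribosomes on the coding sequence, fell in 5 of the 48 genes and rose in 0, against 4.55% of all genes lower and 10.0% changed in either direction. The 5 were the G1 kinase Cdk6, Rrm2, topoisomerase IIα (Top2a), Mki67 and the spindle kinase Aurka. The 48 estimates lay between −0.38 and 0.21 on the log2 scale with a median of −0.10, against 0.01 for all genes, and 38 were below 0. Estimates were lowest among the 7 motors, chromosome and centromere proteins, whose estimates lay between −0.38 and −0.19 with a median of −0.26. All 4 S and M phase cyclins with Cdk1 and all 8 mitotic kinases and checkpoint genes were also estimated below 0, with medians of −0.12 and −0.10, and only Aurka of these 12 passed the threshold. The 8 replication factors had a median of −0.02. Cdkn1b, which inhibits Cdk2, and Wee1, which inhibits Cdk1, were at 0.03 and 0.07, neither past the threshold.

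Cdk6 (ENSMUSG00000040274, chromosome 5, 3341485 to 3531008, GRCm38) had 182, 170 and 147 RPKM of footprints with Denr shRNA1 and 187, 183 and 174 RPKM with Denr shRNA2. With Gfp shRNA it had 235 and 207 RPKM, and with scramble shRNA 257, 225 and 196 RPKM. Every knockdown lysate lay below every control, a change of −0.37 on the log2 scale (limma, standard error 0.08, adjusted p = 0.022). Its RNA ran the other way in the estimate, with values from 123 to 187 RPKM after knockdown and from 121 to 167 RPKM in controls, which overlapped.

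Top2a (ENSMUSG00000020914, chromosome 11, 98992943 to 99024189), which untangles sister chromatids, had 197, 148 and 159 RPKM of footprints with Denr shRNA1 and 177, 154 and 153 RPKM with Denr shRNA2. The controls had 203 and 192 RPKM with Gfp shRNA and 222, 216 and 233 RPKM with scramble shRNA. Only Denr shRNA1 replicate 1 reached into the range of the controls. The log2 change was −0.38 (limma, SE 0.08, adjusted p = 0.0201). Mki67 (ENSMUSG00000031004, chromosome 7, 135689784 to 135716361), which coats mitotic chromosomes, had 17.9, 15.1 and 16.1 RPKM with Denr shRNA1, 18.9, 17.4 and 17.5 RPKM with Denr shRNA2, 19.04 and 20.42 RPKM with Gfp shRNA and 20.2, 22.4 and 23.8 RPKM with scramble shRNA. The groups did not overlap, though Denr shRNA2 replicate 1 and Gfp shRNA replicate 1 nearly touched. Its log2 change was −0.30 (limma, SE 0.08, adjusted p = 0.0388).

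Rrm2 (ENSMUSG00000020649, chromosome 12, 24708241 to 24714146) supplies deoxynucleotides in S phase. It had 294, 253 and 237 RPKM of footprints with Denr shRNA1 and 259, 221 and 225 RPKM with Denr shRNA2, against 311 and 283 RPKM with Gfp shRNA and 325, 313 and 308 RPKM with scramble shRNA. Denr shRNA1 replicate 1 lay above Gfp shRNA replicate 2, and all other knockdown lysates lay below all controls, with a log2 change of −0.32 (limma, SE 0.07, adjusted p = 0.026). The other subunit, Rrm1, was at −0.16 (adjusted p = 0.169) and thymidylate synthase, Tyms, at 0.01 (adjusted p = 0.901). Aurka (ENSMUSG00000027496, chromosome 2, 172356190 to 172370535) had 218, 207 and 209 RPKM with Denr shRNA1, 212, 206 and 185 RPKM with Denr shRNA2, 213 and 231 RPKM with Gfp shRNA and 295, 301 and 252 RPKM with scramble shRNA. The Gfp lysates lay among or just above the knockdown lysates, far from the scramble lysates. The log2 change was −0.31 (limma, SE 0.09, adjusted p = 0.0532), and Aurka no longer passed without scramble shRNA replicate 1 or without scramble shRNA replicate 2. With 1 Denr shRNA at a time against all controls, Cdk6 and Top2a passed with each. Mki67 passed with Denr shRNA1 only (−0.37, and −0.23 with adjusted p = 0.153 from limma for Denr shRNA2), Rrm2 with Denr shRNA2 only (−0.39, and −0.24 with adjusted p = 0.134 for Denr shRNA1), and Aurka with neither (−0.28 and −0.35, adjusted p of 0.207 and 0.118). Whether the Denr shRNAs differ is tested with their own comparison, which none of these 5 genes passed.

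**Figure D1:**
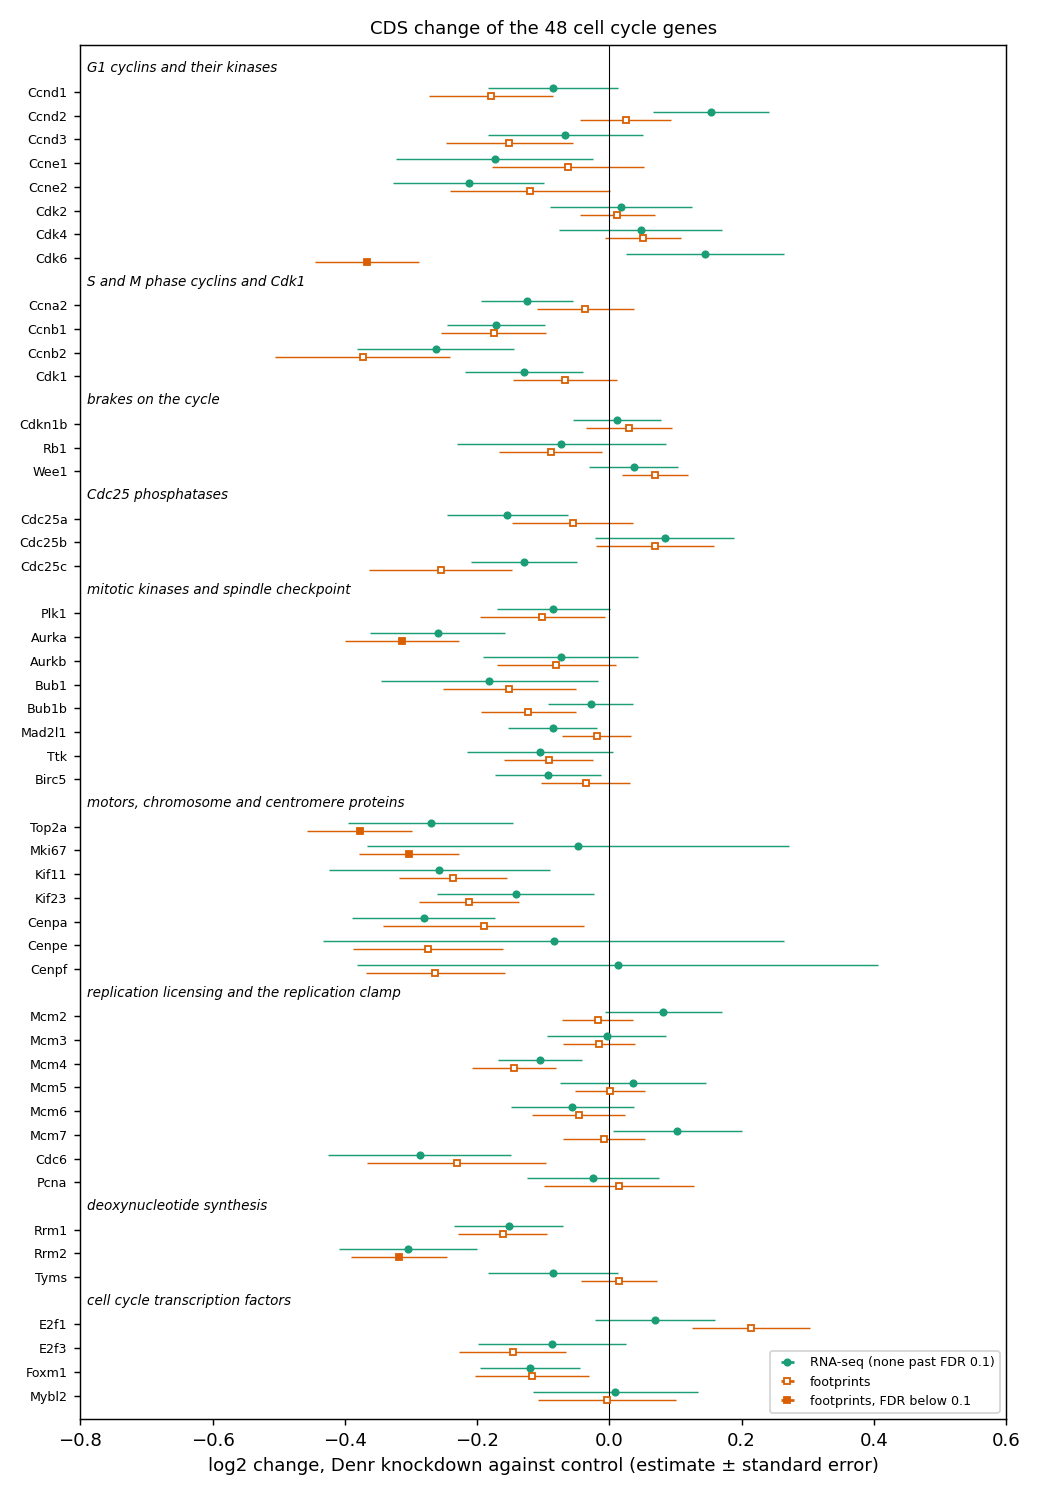
Log2 change (x axis) of CDS RNA (circles) and CDS footprints (squares) of each of the 48 genes, Denr knockdown against control, with the standard error of limma as bars and genes grouped by role. The 5 filled squares, Cdk6, Aurka, Top2a, Mki67 and Rrm2, all lie below 0, no circle passed the FDR of 0.1, and the RNA bars are widest for Mki67, Cenpe and Cenpf.

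Of the genes with the largest estimates, Ccnb2 was at −0.37 for footprints (adjusted p = 0.114), E2f1 at 0.21 (adjusted p = 0.169), Cdc25b at 0.07 (adjusted p = 0.67) and Wee1 at 0.07 (adjusted p = 0.418). Beside Mki67 and Top2a, the genes taken as markers of the phases did not pass the threshold. The G1 cyclin Ccnd1 was at −0.18 (adjusted p = 0.26), cyclin E1 (Ccne1) at −0.06 (adjusted p = 0.773), the replication clamp Pcna at 0.01 (adjusted p = 0.951), Ccna2 at −0.04 (adjusted p = 0.794), cyclin B1 (Ccnb1) at −0.17 (adjusted p = 0.198) and Cdk1 at −0.07 (adjusted p = 0.637).

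The 2 control shRNAs were then compared with each other. For footprints, 8 of the 48 genes differed between Gfp shRNA and scramble shRNA, 7 lower and 1 higher with Gfp shRNA, against 8.48% of all genes. The 7 were Ccna2, Ccnb1, Aurka, the midzone motor Kif23, the kinetochore proteins Cenpe and Cenpf, and Foxm1, and the gene that was higher was E2f1. Cyclin B1 shows the pattern. Ccnb1 had 282 and 272 RPKM of footprints with Gfp shRNA against 332, 343 and 337 RPKM with scramble shRNA, a log2 difference of −0.29 (limma, SE 0.06, adjusted p = 0.0292), while Denr shRNA1 gave 255, 252 and 264 RPKM and Denr shRNA2 283, 305 and 302 RPKM. The Gfp lysates lay between those of the 2 Denr shRNAs. Foxm1 had 35.2 and 39.2 RPKM with Gfp shRNA against 49.2, 47.6 and 49.6 RPKM with scramble shRNA, a log2 difference of −0.39 (limma, SE 0.07, adjusted p = 0.0113), and its 6 knockdown lysates, at 38.7 to 42.0 RPKM, lay in or just above the Gfp range. For RNA, 0 of the 48 genes passed by limma, against 0.704% of all genes, and 5 had an unadjusted p below 0.05. No other tool was run on this comparison. With 2 Gfp lysates the footprint count rested on few libraries. It was 0 by limma without Gfp shRNA replicate 1 (17 at an unadjusted p below 0.05), 1 (Foxm1) without Gfp shRNA replicate 2 and 2 (Ccnb1, Foxm1) without scramble shRNA replicate 2.

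**Figure D2:**
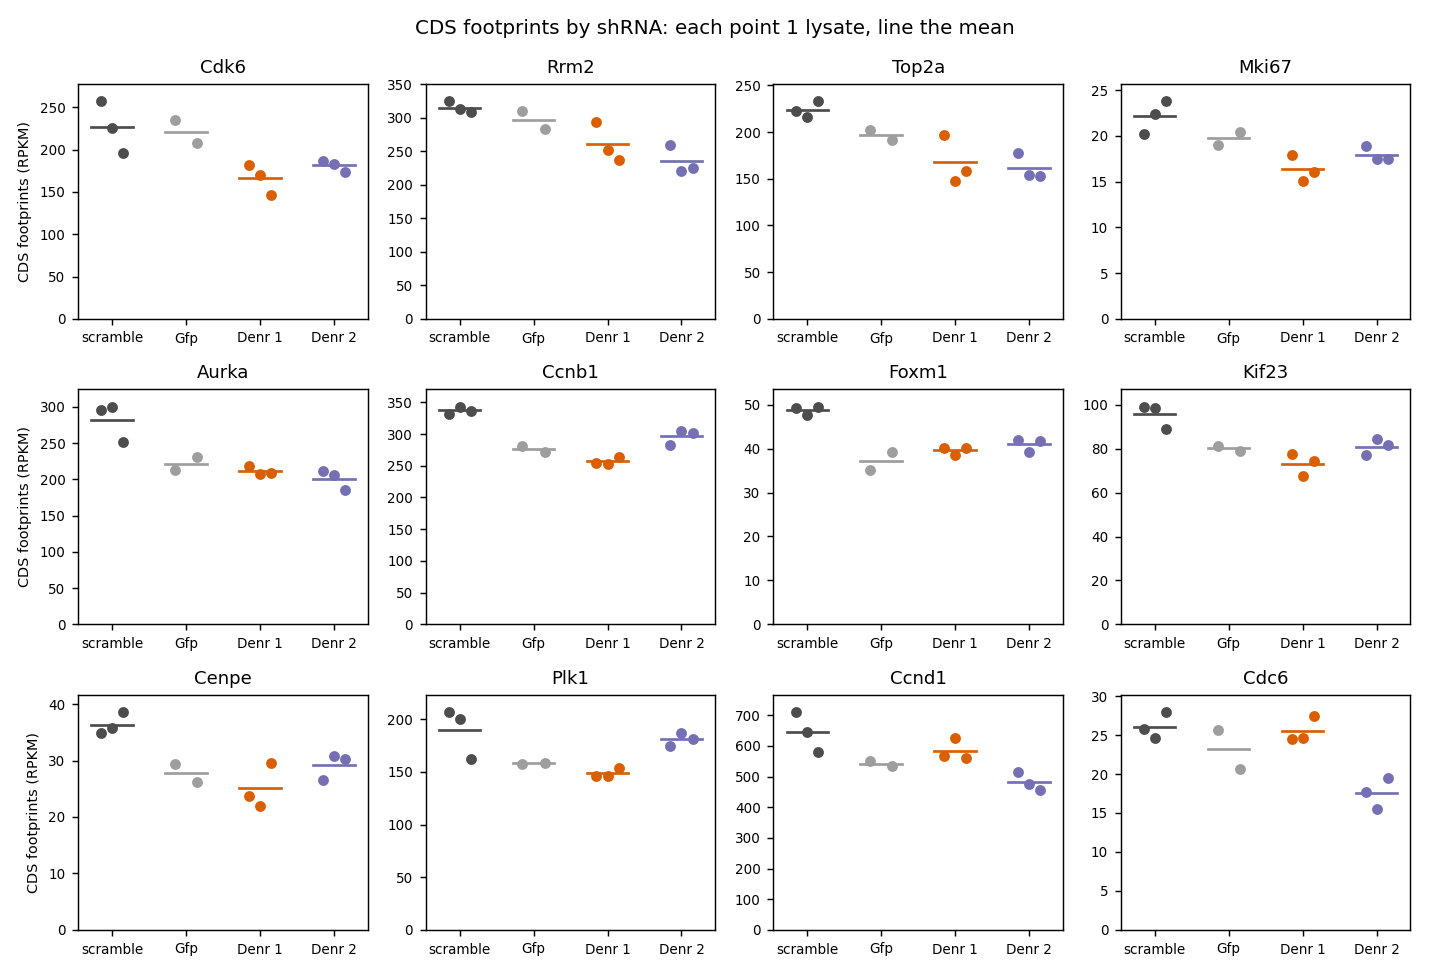
CDS footprints in RPKM (y axis, from 0) of 12 genes in the lysates of each shRNA (x axis), 1 point per lysate and a line at the mean. Cdk6 and Rrm2 are at a like level in both controls and lower with both Denr shRNAs, Aurka, Ccnb1, Foxm1, Kif23 and Cenpe are high with scramble shRNA only, and Cdc6 and Ccnd1 are lower with Denr shRNA2.

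The calls of the knockdown differed with the control. Against scramble shRNA alone, 21 of the 48 genes passed for footprints, against 25.2% of all genes. Against Gfp shRNA alone, with 2 control lysates, 0 passed by limma, against 0.875% of all genes, and 3 had an unadjusted p below 0.05. No other tool was run on these 2 comparisons. Each gene was centred on its mean over the 11 lysates, and the median over the 19 genes that act in S phase, G2 or mitosis was taken in each lysate. For footprints it was 0.19, 0.20 and 0.15 with scramble shRNA on the log2 scale, −0.02 and −0.05 with Gfp shRNA, −0.06, −0.21 and −0.13 with Denr shRNA1 and −0.03, 0.03 and 0.00 with Denr shRNA2. The scramble lysates stood above all others, Gfp shRNA overlapped with Denr shRNA2, and the Denr shRNA1 lysates lay below both. The same median for RNA was 0.16, 0.22 and 0.10 with scramble shRNA and at most 0.03 in every other lysate. For the 11 genes of replication and nucleotide synthesis, the footprint medians of scramble shRNA (0.08, 0.00 and 0.05) lay within the range of the knockdown lysates (−0.11 to 0.11). Of the 5 genes that fell, Aurka passed between the controls (−0.35, adjusted p = 0.0537 from limma). Cdk6, Rrm2, Top2a and Mki67 did not (Cdk6 −0.03, adjusted p = 0.915, and Rrm2 −0.09, adjusted p = 0.63, both from limma). By the values above, the Gfp lysates of Top2a lay below all its scramble lysates, and Mki67 was lower on average with Gfp shRNA. With 2 Gfp lysates, not passing does not show that the controls were alike.

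**Figure D3:**
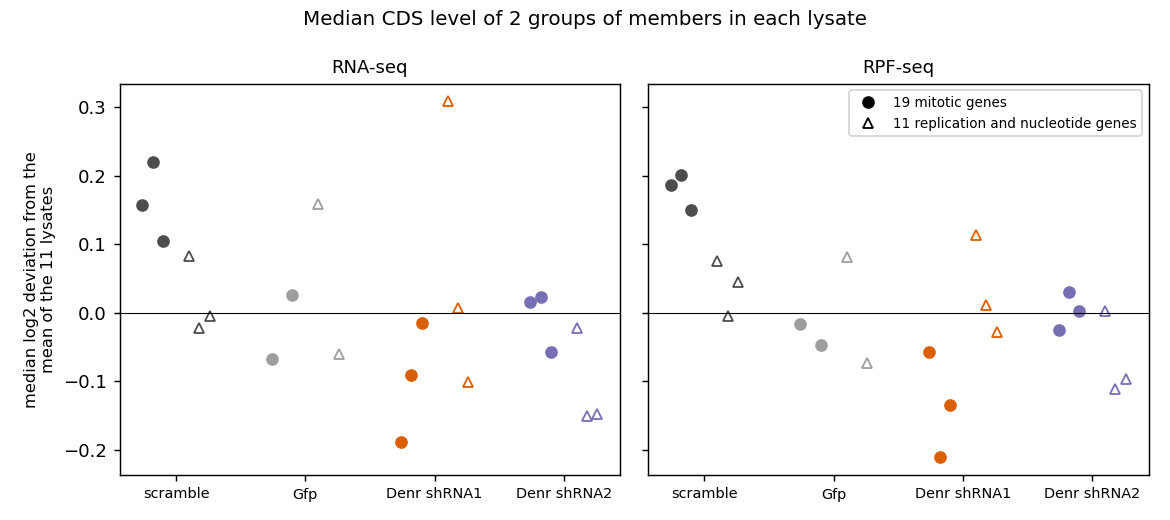
Median log2 deviation from the mean of the 11 lysates (y axis) of 19 mitotic genes (filled circles) and 11 replication and nucleotide genes (open triangles) in each lysate of the 4 shRNAs (x axis), for RNA-seq and RPF-seq. The mitotic genes are highest in the 3 scramble lysates, at 0.15 to 0.20 in RPF-seq, and the replication genes do not separate the shRNAs.

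Translation efficiency was compared next, as the change of footprints relative to RNA. Of the 48 genes, 0 passed the threshold by limma, against 0.475% of all genes, and 1 had an unadjusted p below 0.05. With an interaction term over all 22 libraries 0 passed as well. The median change was −0.01 on the log2 scale, the same as over all genes. The gene with the low p was Cdk6, the lowest of the 48, with log2 TE of 0.57, 0.15 and 0.14 with Denr shRNA1, of 0.17, −0.03 and −0.04 with Denr shRNA2, of 0.96 and 0.53 with Gfp shRNA and of 0.76, 0.44 and 0.66 with scramble shRNA. Only Denr shRNA1 replicate 1 overlapped with the controls, and the change was −0.51 (limma, SE 0.12, adjusted p = 0.157). Without Denr shRNA1 replicate 1, Cdk6 passed. Cenpf and Mki67 were next lowest at −0.28 and −0.25, with standard errors of 0.36 and 0.33. The highest were E2f1 at 0.14, Ccne1 at 0.11 and Tyms at 0.10, none of them past the threshold.

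The RNA of Cenpf and Mki67 was low in the RNA-seq libraries of Denr shRNA1 replicate 1 and Gfp shRNA replicate 1. Mki67 RNA was 21.96 and 30.4 RPKM in these, against 54.8 to 80.2 RPKM in the other 9 libraries. Cenpf was at 9.66 and 14.7 RPKM, against 30.6 to 53.1 RPKM, and Cenpe at 12.5 and 18.2 RPKM, against 37.9 to 55.6 RPKM. The 3 genes have a CDS of 9531, 9093 and 7413 nt, the longest of the 48. Over all 457 genes with a CDS over 5000 nt, the median deviation from the mean of the lysates was −0.25 and −0.19 on the log2 scale in these libraries. In the other RNA-seq libraries it lay between −0.05 and 0.20. Replicate 1 was the lowest RNA-seq library of every shRNA, also at −0.02 with Denr shRNA2 (others 0.20 and 0.16) and −0.05 with scramble shRNA (others 0.03 and 0.03). In RPF-seq, Denr shRNA1 replicate 1 and Gfp shRNA replicate 1 were at −0.01 and 0.08. The RPF-seq values of Mki67, Cenpf and Cenpe in the same lysates lay with their replicates. Over the 3290 genes with a CDS under 1000 nt, the RNA-seq median was 0.21 in Denr shRNA1 replicate 1 and 0.09 in Gfp shRNA replicate 1. CDS length did not order all of the 48 genes. Kif11 and Bub1b, both of 3156 nt, deviated by −0.87 and 0.00 in Denr shRNA1 replicate 1 from the mean of the other 9 libraries. A cause was not tested. Without Denr shRNA1 replicate 1 and Gfp shRNA replicate 1, 4 of the 48 genes passed for RNA (Aurka, Kif11, Rrm2 and Top2a), 5 for footprints, and 1 for TE (Cdk6). Shares over all genes without these lysates are not given here.

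**Figure D4:**
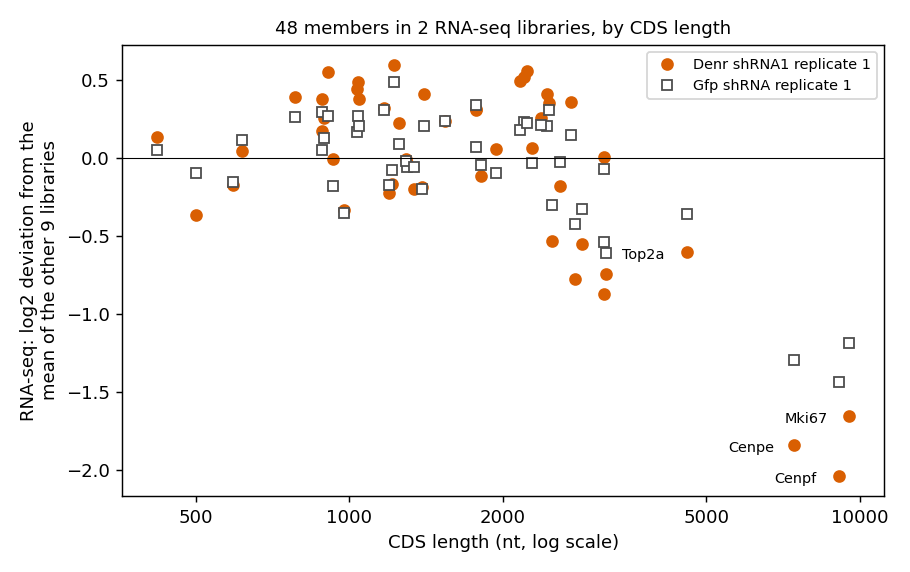
Log2 deviation of RNA from the mean of the other 9 RNA-seq libraries (y axis) against the CDS length of the 48 genes (x axis, log scale) in Denr shRNA1 replicate 1 (circles) and Gfp shRNA replicate 1 (squares). Cenpf, Cenpe and Mki67, the 3 longest, lie at −2.03, −1.84 and −1.65 in Denr shRNA1 replicate 1.

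Relative 5′ UTR translation, the footprint density of the 5′ UTR divided by that of the CDS in the same lysate, was compared for genes with a 5′ UTR read count of 20 or more in 9 or more of the 11 RPF-seq libraries. Of the 48 genes, 37 met this, among 5175 genes in all. It rose in 12 and fell in 0, against 18.1% of the 5175 genes changed and 18.1% of them higher. The median change of the 37 genes was 0.46 on the log2 scale, against 0.33 for all 5175, and 36 of 37 estimates were above 0, the exception being E2f1 at −0.07 (adjusted p = 0.706). The 12 came from most roles: the G1 genes Ccnd3, Cdk2 and Cdk6, the inhibitor Cdkn1b, the phosphatase Cdc25c, Birc5, the mitotic genes Top2a, Kif11 and Kif23, the helicase subunit Mcm4, Rrm1 and Tyms. Their changes lay between 0.45 and 1.20. For the RNA-seq reads of 5′ UTR over CDS, 0 of the 37 passed by limma, and 2 had an unadjusted p below 0.05. No other tool was run on the RNA ratio, and its share over all 5175 genes is not given here. The 0 of 37 is thus not shown to be particular to these genes.

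Kif23 (ENSMUSG00000032254, chromosome 9, 61915905 to 61946774), a kinesin that bundles the central spindle at cytokinesis, rose most. Its 5′ UTR had 30.4%, 47.0% and 42.2% of the CDS density with Denr shRNA1 and 36.7%, 47.3% and 37.7% with Denr shRNA2, against 19.1% and 22.4% with Gfp shRNA and 16.7%, 16.5% and 13.2% with scramble shRNA. The groups did not overlap, and the log2 change was 1.20 (limma, SE 0.18, adjusted p = 0.00456). Both parts of the ratio moved in the estimates. The 5′ UTR had 23.5 to 39.8 RPKM of footprints after knockdown (58 to 77 reads) and 11.7 to 17.7 RPKM in controls (33 to 52 reads). The CDS estimate was −0.21 (adjusted p = 0.119 from limma). Tyms (ENSMUSG00000025747, chromosome 5, 30058202 to 30073617), which makes thymidylate, had 40.7%, 48.2% and 43.1% with Denr shRNA1 and 46.4%, 42.3% and 37.1% with Denr shRNA2, against 20.4% and 36.0% with Gfp shRNA and 24.2%, 28.4% and 14.3% with scramble shRNA. Its groups did not overlap either, with a log2 change of 0.86 (limma, SE 0.20, adjusted p = 0.0393). Cdk2, the partner of cyclin E, had 46.9%, 52.3% and 49.0% with Denr shRNA1, 53.5%, 54.4% and 36.7% with Denr shRNA2 and 30.5% to 33.2% in the 5 controls. Its log2 change was 0.60 (limma, SE 0.15, adjusted p = 0.0491), with no overlap.

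Cdk6 was at 56.4% to 77.6% after knockdown and 27.7% to 57.8% in controls, which overlapped (log2 change 0.57, standard error 0.19, adjusted p = 0.0842 from limma). It was 1 of 2 genes, with Top2a, whose CDS footprints fell and whose relative 5′ UTR translation rose, and the CDS footprints are also the denominator of that ratio. Top2a had 50.05% to 83.0% after knockdown and 33.4% to 51.4% in controls (log2 change 0.60, adjusted p = 0.0635). Ccnd3, Birc5, Mcm4, Kif11, Rrm1, Cdkn1b and Cdc25c rose by 0.61, 0.59, 0.57, 0.54, 0.52, 0.46 and 0.45, with adjusted p from 0.0759 to 0.096 by limma, near the threshold, and their groups overlapped. Ccne1 was at 0.63 (adjusted p = 0.112). The lowest beside E2f1 were the kinase Cdk4 at 0.11 (adjusted p = 0.589) and Foxm1 at 0.18 (adjusted p = 0.431). The count of 12 moved with single lysates. It was 1 without Denr shRNA2 replicate 2, 2 without Denr shRNA1 replicate 2, 3 without Denr shRNA1 replicate 3 or Gfp shRNA replicate 1, 4 without scramble shRNA replicate 1, 6 without scramble shRNA replicate 3, 7 without Denr shRNA1 replicate 1 and 20 without Gfp shRNA replicate 2, and Kif23 passed each time. With 1 Denr shRNA at a time against all controls, Kif23 passed with Denr shRNA2 only, and Tyms and Cdk2 passed with neither. Against Gfp shRNA alone, Kif23 passed, and Tyms and Cdk2 did not. When 5′ UTR footprints were divided by 5′ UTR RNA, Kif23 alone of the 37 passed. Under that denominator Cdk2 was at 0.69 (adjusted p = 0.152 from limma) and Tyms at 0.82 (adjusted p = 0.147), about as before, whereas Cdk6 was at 0.05 (adjusted p = 0.906).

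**Figure D5:**
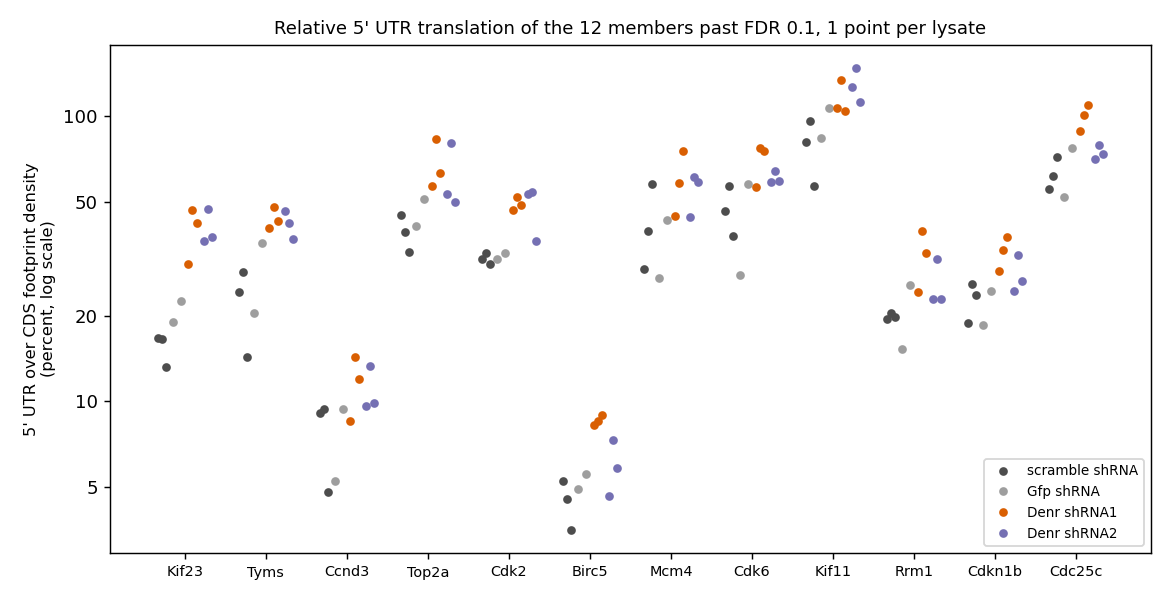
Footprint density of the 5′ UTR as a percent of that of the CDS (y axis, log scale) in each lysate for the 12 genes past the FDR of 0.1 (x axis, ordered by their change), coloured by shRNA. The groups do not overlap for Kif23, Tyms and Cdk2, and controls reach into the knockdown values for the other 9 genes.

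uORFs that begin with AUG were read from the GENCODE vM21 transcript whose CDS length equals the one behind the RPKM and whose 5′ UTR is nearest in length, which gave a transcript for 35 of the 48 genes, 21 of them with the same 5′ UTR length. An AUG with an in-frame stop and at least 9 nt was present in 13 of the 35 genes (37.1%), against 49.4% of 7196 genes with such a transcript. Of the 12 genes that rose, 10 had a transcript, and 3 of these carried an AUG uORF (Birc5, Cdc25c and Rrm1) while 7 did not (Cdk2, Cdk6, Cdkn1b, Kif11, Kif23, Mcm4 and Top2a). For Cdk2, Cdk6 and Kif23 the transcript had a 5′ UTR of 203, 327 and 152 nt, shorter than the 224, 417 and 177 nt behind the RPKM. In these genes an AUG uORF outside the transcript would have been missed. Over all genes past the threshold with a transcript 42.4% carried one, and over the covered genes not past it 68.2%. Start codons other than AUG were not searched. The start codons of the uORFs are shown with their neighbouring bases for 2 genes that rose, Birc5 and Rrm1, and for 2 that did not pass, Ccnb1 and Cdk1, with ATG in capitals.
Birc5 (chromosome 11, start codon at 117849271 to 117849273, plus strand, exon 1, uORF of 48 nt): ggctctcccggcATGctctgcggcgcg
Rrm1 (chromosome 7, start codon at 102441700 to 102441702, plus strand, exon 1, uORF of 372 nt that overlaps the CDS): tcaatATGgcggccaaggga
Ccnb1 (chromosome 13, start codon at 100786548 to 100786550, minus strand, exon 1, uORF of 27 nt): acgaactggccaATGaggagcgagcgg
Cdk1 (chromosome 10, start codon at 69351641 to 69351643, minus strand, exon 2, uORF of 72 nt): cccccacaccccATGgagttgatttta
The genes shown with a uORF were at 0.59 for Birc5, 0.52 for Rrm1, 0.49 for Ccnb1 (adjusted p = 0.103) and 0.45 for Cdk1 (adjusted p = 0.142).

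The 2 Denr shRNAs were compared to see where they differ from each other. In RNA, 1 of the 48 genes differed, against 2.06% of all genes. It was Cdc6 (ENSMUSG00000017499, chromosome 11, 98907801 to 98923940), which loads the replicative helicase at origins. Its RNA was 21.98, 18.3 and 20.5 RPKM with Denr shRNA1 and 14.6, 13.7 and 13.8 RPKM with Denr shRNA2, a log2 difference of −0.52 (limma, SE 0.12, adjusted p = 0.0817), and the 5 controls lay between 16.9 and 24.2 RPKM. The Denr shRNA1 lysates lay within the controls, and the Denr shRNA2 lysates below them. Leaving out any 1 of the 6 knockdown lysates took this call away. In footprints, 6 of the 48 genes differed, 4 higher and 2 lower with Denr shRNA2, against 9.69% of all genes. Cdc6 had 24.5, 24.6 and 27.5 RPKM of footprints with Denr shRNA1, 17.7, 15.5 and 19.5 RPKM with Denr shRNA2 and 20.7 to 27.95 RPKM in controls, a log2 difference of −0.54 (limma, SE 0.10, adjusted p = 0.00937). It passed with each knockdown lysate left out.

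Ccnd1, a D-type cyclin, had 568, 626 and 561 RPKM of footprints with Denr shRNA1, 515, 477 and 457 RPKM with Denr shRNA2 and 535 to 711 RPKM in controls (log2 difference −0.28, standard error 0.08, adjusted p = 0.0725 from limma). The 4 genes that were higher with Denr shRNA2 act at mitosis. Plk1 had 146, 146 and 153 RPKM with Denr shRNA1 and 175, 187 and 181 RPKM with Denr shRNA2, between 157 and 207 RPKM in controls, and its difference was 0.28 (adjusted p = 0.0668). Ccnb1, Cenpf and Cdc25c differed by 0.21, 0.28 and 0.34 (adjusted p of 0.049, 0.0888 and 0.0777). The count of 6 became 2 without Denr shRNA1 replicate 1 (Cdc6, Kif11) and 1 (Cdc6) without Denr shRNA1 replicate 2, without Denr shRNA2 replicate 2 or without Denr shRNA2 replicate 3.

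Other genes of the same pathways, 153 in 7 lists by function, were counted in the same fits, of which 148 were measured. For RNA and TE, 0 of 148 passed by limma, against 3.55% and 0.475% of all genes, with 14 and 8 at an unadjusted p below 0.05, and no other tool was run on these lists. For footprints, 14 fell (9.46%) and 0 rose, against 4.55% of all genes lower and 10.0% changed, and the median of the 148 was −0.09 on the log2 scale, against 0.01 for all genes. Of the 14, 7 were among the 27 genes of the spindle, the midzone and cytokinesis, all 27 of which were estimated below 0 (median −0.20), and 4 were among 15 of condensin and cohesin (Smc3, Smc4, Ncapg and Espl1). Plk4, which starts centriole duplication, fell by 0.48 on the log2 scale (adjusted p = 0.0225), the contractile ring protein Anln by 0.36 (adjusted p = 0.0521), and the spindle proteins Ckap2 and Ckap5 by 0.32 (adjusted p = 0.0553) and 0.29 (adjusted p = 0.0736). The E2f partner Tfdp2 fell by 0.28 (adjusted p = 0.0769). Between Gfp shRNA and scramble shRNA, 13 of the 148 were lower (8.78%) and 0 higher, and 8 of the 13 were spindle and cytokinesis genes. Over all genes 8.48% changed in either direction, so the share of all genes that were lower is smaller than that. All 27 genes of the spindle and cytokinesis list were again estimated below 0 (median −0.24). The furthest were Cep55 at −0.46, Ube2c at −0.41, Kif20a at −0.40, Aspm at −0.37 and Cdc20 at −0.33. Both comparisons include the scramble lysates.

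Relative 5′ UTR translation rose in 20 of the 89 pathway genes with coverage (22.5%, near the 18.1% of all covered genes) and fell in 0. The origin recognition subunit Orc1 rose by 0.94 (adjusted p = 0.0343), the kinetochore protein Cenpo by 0.87 (adjusted p = 0.0343), the Cdk subunit Cks1b by 0.86 (adjusted p = 0.0759), the ubiquitin-conjugating enzyme Ube2c by 0.83 (adjusted p = 0.0977) and Tfdp1 by 0.78 (adjusted p = 0.044). Between the Denr shRNAs, the flap endonuclease Fen1 of the replication fork was lower with Denr shRNA2 by 0.83 in RNA (adjusted p = 0.00606) and by 0.95 in footprints (adjusted p = 3.34e-05), and Rfc3, a clamp loader subunit, was lower by 0.26 in footprints (adjusted p = 0.0977). Anln, Mastl, Prc1, Kif2c and Dlgap5 were higher with Denr shRNA2 in footprints, by 0.35, 0.30, 0.25, 0.23 and 0.23. No further pathway gene differed in RNA between the Denr shRNAs.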

How the data were processed

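Per the labels and the study's methods, the deposited values are RPKM, 1 for each CDS and 1 for each 5′ UTR in every library, which the authors made from trimmed, size-selected reads aligned with Bowtie2 2.2.1 and TopHat2 2.0.11 (GRCm38.p2), counted on expressed isoforms and normalised by the upper quartile, RPF-seq and RNA-seq separately. Genes with few reads had been removed by the authors. The whole reads behind all 231352 CDS values were recovered from the steps between values (tolerance 0.001) and used for depth, filters and voom.

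Values were analysed as log2(RPKM + 0.1), which slightly understates changes of low genes, with lmFit and eBayes (trend) of limma 3.58.1 in R 4.3.3, Benjamini-Hochberg adjustment over all genes and an FDR of 0.1. TE and relative 5′ UTR translation were differences of log2 values within a lysate. The knockdown comparisons fitted a single mean for each arm and took each dish as a replicate of its arm. Their p-values measure the spread between dishes together with any difference between the shRNAs of an arm. The comparisons between shRNAs fitted a separate mean for each shRNA, and their p-values measure the spread between dishes. edgeR was used only by the authors. The fit was tested on simulated data with 200 changed genes. These data had the same dispersion for every gene and no difference between the shRNAs of an arm or between replicate numbers. They therefore do not show how the FDR behaves under such differences.

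Members, gene lists and tests were chosen with earlier results of these data known. Named with values were Denr, members past a threshold, the 3 largest rises and falls per measure, phase markers and up to 5 pathway genes per direction. Genes at the ends of the orders of control level and TE, and genes that differed only between the controls (Cenpe), were named after their values were seen. Other settings tried were a pseudocount of 0.01 or 1, only genes averaging 1 RPKM or more, median centring, no trend, single shRNAs, single controls, the replicate number as a block, single lysates left out, voom, an interaction term, another coverage filter and another denominator. Control comparisons with single lysates left out, Gfp shRNA alone as control and the removal of 2 libraries were added after seeing the data. Symbols were matched for 10505 of 10516 identifiers.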

Additional observations from a re-analysis of the deposited data

Results flagged for a closer look

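In groups of 5 or 6 lysates, a library was marked where its gap to the nearest other lysate took up most of the range of its group (Dixon's criterion). Of 164 groups tested 10 were marked, where chance gives about 1 in 20. In RNA-seq, Denr shRNA1 replicate 1 stood apart among knockdown lysates for Cenpe (12.5 RPKM, others 37.9 to 55.6), Cenpf (9.66 RPKM, others 31.8 to 53.1), Mki67 (22 RPKM, others 59.4 to 80.2), Kif11 (65.9 RPKM, others 104 to 120) and, on the high side, Mcm7 (124 RPKM, others 85.7 to 97.7). Gfp shRNA replicate 1 stood apart among controls for Cenpe (18.2 RPKM, others 39.5 to 50.8) and, on the high side, Pcna (95.6 RPKM, others 79.1 to 83.0). In RPF-seq, Denr shRNA2 replicate 3 was low for Aurka (185 RPKM, others 206 to 218) and Gfp shRNA replicate 2 for Rrm1 (182 RPKM, others 211 to 222). For relative 5′ UTR translation, Denr shRNA2 replicate 3 was low for Cdk2 (36.7% of the CDS density, others 46.9 to 54.4%).

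Between the 2 Denr shRNAs the tested difference passed the threshold in limma for Cdc6 RNA (−0.52 on the log2 scale, shRNA2 against shRNA1) and, for footprints, for Cdc6 (−0.54), Ccnd1 (−0.28), Ccnb1 (0.21), Plk1 (0.28), Cenpf (0.28) and Cdc25c (0.34).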

How the results depend on the processing

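For RNA the count of genes past the threshold, 0 of 48, became 2 with Denr shRNA2 alone, 3 with scramble shRNA alone, 2 with the replicate block and 4 without the 2 RNA-seq libraries low for long genes, and 0 to 2 with single lysates left out. For footprints, 5 became 21 with scramble shRNA alone, 0 with Gfp shRNA alone and 11 with the replicate block, and 4 to 15 with single lysates left out, 15 without Gfp shRNA replicate 2. For TE, 0 became 1 (Cdk6) with the replicate block and without the 2 libraries, and 0 to 1 with single lysates left out. For relative 5′ UTR translation, 12 became 0 with Denr shRNA1 alone, 1 with Denr shRNA2 alone, 6 with scramble shRNA alone, 2 with Gfp shRNA alone, 22 with the replicate block, 2 with a mean 5′ UTR RPKM of at least 1 and 1 over 5′ UTR RNA, and 1 to 20 with single lysates left out. Between the Denr shRNAs, 1 for RNA became 5 with the replicate block and 0 with the knockdown lysates alone and 0 with any of them left out, and 6 for footprints became 12 with the replicate block and 1 to 5 with single lysates left out. Between the controls, 8 for footprints became 0 to 9 with single lysates left out. The cause of these shifts was not tested beyond the removal of samples. Shares over all genes are given above for the main fits of these measures and, for footprints, for each control alone. For the other settings, here and above, they are not given. A shift in these counts is thus not shown to be particular to the members. All other counts stayed within 1.5 times. Of 519 values of single genes under alternatives, those of Denr included, 325 kept direction and side of the threshold, 194 kept direction but no longer passed, and 0 turned. The genes were picked for passing in the main fits, and the alternatives share lysates with these. The kept directions are therefore no separate support. The labels do not say that same-numbered lysates were paired. Their deviations from the mean of their shRNA correlated above 0.1 in 10 of 15 pairs for RNA, 13 of 15 for footprints and 10 of 15 for TE (mean r of 0.326, 0.18 and 0.226). Those of differently numbered lysates did so in 5, 4 and 4 of 30 pairs (mean r of −0.163, −0.0894 and −0.113). Deviations add up to 0 within an shRNA, so the second means largely follow from the first and are not a separate comparison. Same-numbered lysates thus tended to deviate together, though not every pair was above 0.1, and the main fits, without the block, do not use this. With the block, more genes passed for RNA, footprints, TE and relative 5′ UTR translation, by the counts given above.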
